A study of Mus musculus with 16 samples.

Results

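A set of 10 genes of epidermal terminal differentiation were followed across RNA-seq libraries of mouse keratinocytes that lack or express integrin α3β1: *Ivl*, *Sprr1a*, *Evpl*, *Ppl*, *Tgm1*, *Cdsn*, *Klf4*, *Grhl3*, *Ovol1* and *Sfn*. They were chosen by symbol, with earlier results of these data known. All 10 were present among the 14474 genes of the count table and passed its filter on low counts. The libraries came from immortalized keratinocytes without α3 integrin (MKα3− cells) and from the same cells given back human α3 integrin (MKα3+ cells). Each was treated for 16 to 24 h with either 0.02 mg/mL of full-length recombinant laminin 332 (LN332), the basement membrane ligand of α3β1, or vehicle, with 4 libraries in each of the 4 groups. All cells grew in low-calcium medium on collagen-coated dishes at 33 °C and 8% CO2. Low calcium generally holds cultured keratinocytes back from differentiation, and its effect in these groups was not tested. Each integrin state was represented by 1 cell line, so that a difference between the lines and an effect of α3 integrin cannot be told apart.

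In the epidermis, keratinocytes leaving the basal layer replace their plasma membrane with the cornified envelope, a protein shell in which transglutaminases cross-link precursors such as involucrin, the small proline-rich proteins, envoplakin and periplakin. Transcription factors including KLF4, GRHL3 and OVOL1 direct this programme and barrier formation, while corneodesmosin holds the outermost cells together. In culture, raised calcium and loss of contact with the basement membrane are the usual triggers of the programme.

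Sequences upstream of the transcription start are shown for the genes on which the LN332 and line comparisons turned, together with *Ivl* and *Sprr1a*, which lie near each other on chromosome 3. They are the 250 bases before each start in the RefSeq table of build GRCm38.p6, written 5′ to 3′ on the strand of the gene, and 7 of the 10 genes had an entry (*Evpl*, *Ppl* and *Ovol1* had none). Capitals mark matches, on either strand, to the core letters of an AP-1 site (TGANTCA), a Grainyhead site (AACCNGTT), a Krüppel-like factor site (CCACCC) or a TEAD site (GGAATG).
Sfn, chr4:133602169-133602418, minus strand: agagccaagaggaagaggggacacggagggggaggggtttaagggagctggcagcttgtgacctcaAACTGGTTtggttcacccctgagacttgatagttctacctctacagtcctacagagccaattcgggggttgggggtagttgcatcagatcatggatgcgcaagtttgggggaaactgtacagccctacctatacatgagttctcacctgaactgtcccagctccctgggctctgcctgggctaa
Grhl3, chr4:135573633-135573882, minus strand: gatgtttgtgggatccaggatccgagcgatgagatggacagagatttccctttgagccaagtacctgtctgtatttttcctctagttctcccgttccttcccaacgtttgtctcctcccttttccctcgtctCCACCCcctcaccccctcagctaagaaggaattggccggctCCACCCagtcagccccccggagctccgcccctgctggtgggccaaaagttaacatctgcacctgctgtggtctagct
Cdsn, first start, chr17:35542851-35543100, plus strand: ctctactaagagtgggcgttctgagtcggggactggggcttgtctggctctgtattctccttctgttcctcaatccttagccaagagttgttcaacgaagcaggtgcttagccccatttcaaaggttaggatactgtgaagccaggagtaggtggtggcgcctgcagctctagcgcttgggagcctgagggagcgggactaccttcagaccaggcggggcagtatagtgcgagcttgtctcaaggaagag
Cdsn, second start, chr17:35551878-35552127, plus strand: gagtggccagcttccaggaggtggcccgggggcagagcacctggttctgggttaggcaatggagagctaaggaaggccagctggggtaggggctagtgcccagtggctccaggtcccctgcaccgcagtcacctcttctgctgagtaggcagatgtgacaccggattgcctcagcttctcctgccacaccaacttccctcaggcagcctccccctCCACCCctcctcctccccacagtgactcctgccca
Ivl, chr3:92573736-92573985, minus strand: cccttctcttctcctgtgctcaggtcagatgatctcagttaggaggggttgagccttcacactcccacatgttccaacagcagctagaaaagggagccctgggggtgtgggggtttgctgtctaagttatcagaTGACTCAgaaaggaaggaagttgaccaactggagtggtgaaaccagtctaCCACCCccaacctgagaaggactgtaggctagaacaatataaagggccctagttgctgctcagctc
Sprr1a, chr3:92485882-92486131, minus strand: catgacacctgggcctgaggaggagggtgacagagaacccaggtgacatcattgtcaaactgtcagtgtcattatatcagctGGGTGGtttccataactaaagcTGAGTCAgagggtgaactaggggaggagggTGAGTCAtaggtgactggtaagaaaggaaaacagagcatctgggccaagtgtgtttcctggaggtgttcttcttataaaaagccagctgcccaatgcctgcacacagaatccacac
The AP-1 letters stood once before *Ivl*, 116 bases from the start, and at a pair of positions before *Sprr1a*, 146 and 116 bases from it, against 6.75% of all 32851 windows of this length. *Sfn* had the Grainyhead letters 184 bases upstream, which 1.79% of all windows held. The Krüppel-like letters, present in 28.1% of all windows, occurred before *Grhl3* at 118 and 77 bases, before the second *Cdsn* start, before *Ivl* and *Sprr1a*, and before both *Tgm1* starts, whereas none of the 9 windows of these genes held the TEAD letters, found in 12.6% of all windows. No matches overlapped. They describe letters only, and binding was not measured.

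Libraries held between 21735708 and 29338370 counts (median 27036993). Markers of basal keratinocytes were present throughout, with all 11 in the table and a summed level of 10930 to 23510 CPM (the reads of a gene relative to the total of its library, normalized by trimmed mean of M-values). Melanocyte and fibroblast markers were low, at sums of 4.70 to 10.6 and 17.1 to 51.4 CPM, with *Tyr*, *Tyrp1*, *Dct*, *Mlana*, *Sox10*, *Dcn*, *Lum* and *Zeb1* not in the table. Immune markers summed to 20.8 to 306 CPM without *Cd3e* and *Cd207* in the table, and endothelial markers to 3.33 to 6.45 CPM. Reads over mouse *Itga3* did not separate the lines (211 to 317 CPM in MKα3− and 211 to 314 CPM in MKα3+ libraries): the reintroduced α3 is human, and a count over the whole gene does not check the labels.

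Per kilobase of exon, the genes spanned a wide range of levels. *Sfn*, which encodes the keratinocyte protein 14-3-3σ, was by far the most abundant, with 558 ± 65.8 CPM per kilobase (RPKM, mean ± SD, n = 4) in MKα3− cells with vehicle. *Ppl* followed at 66.7 ± 5.75 RPKM, and *Evpl* and *Klf4*, whose ranges overlapped, at 37.3 ± 2.76 and 32.5 ± 5.35 RPKM. Lower down, *Grhl3*, *Tgm1* and *Ovol1* lay between 5.02 and 10.2 RPKM on average. *Cdsn*, *Ivl* and *Sprr1a* came last, at 3.76, 2.23 and 1.68 RPKM, each with a range that overlapped its neighbour. *Sfn* reached 959 ± 200 RPKM in MKα3− and 768 ± 79.3 RPKM in MKα3+ cells with LN332. In MKα3+ cells with vehicle *Sfn* and *Ppl* again led, and *Tgm1*, *Cdsn*, *Grhl3* and *Ovol1* had means between 5.22 and 6.94 RPKM. Each of these overlapped its neighbour in the order, although *Tgm1* (6.46 to 7.76 RPKM) and *Cdsn* (5.80 to 7.55 RPKM) lay wholly above *Ovol1* (4.799 to 5.456 RPKM). Counts behind these levels ran from 13 to 96 reads per library for *Sprr1a* and 32 to 197 for *Ivl*, but from 20643 to 45858 for *Sfn*, so the 2 small envelope precursors were measured least precisely.

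**Figure D1:**
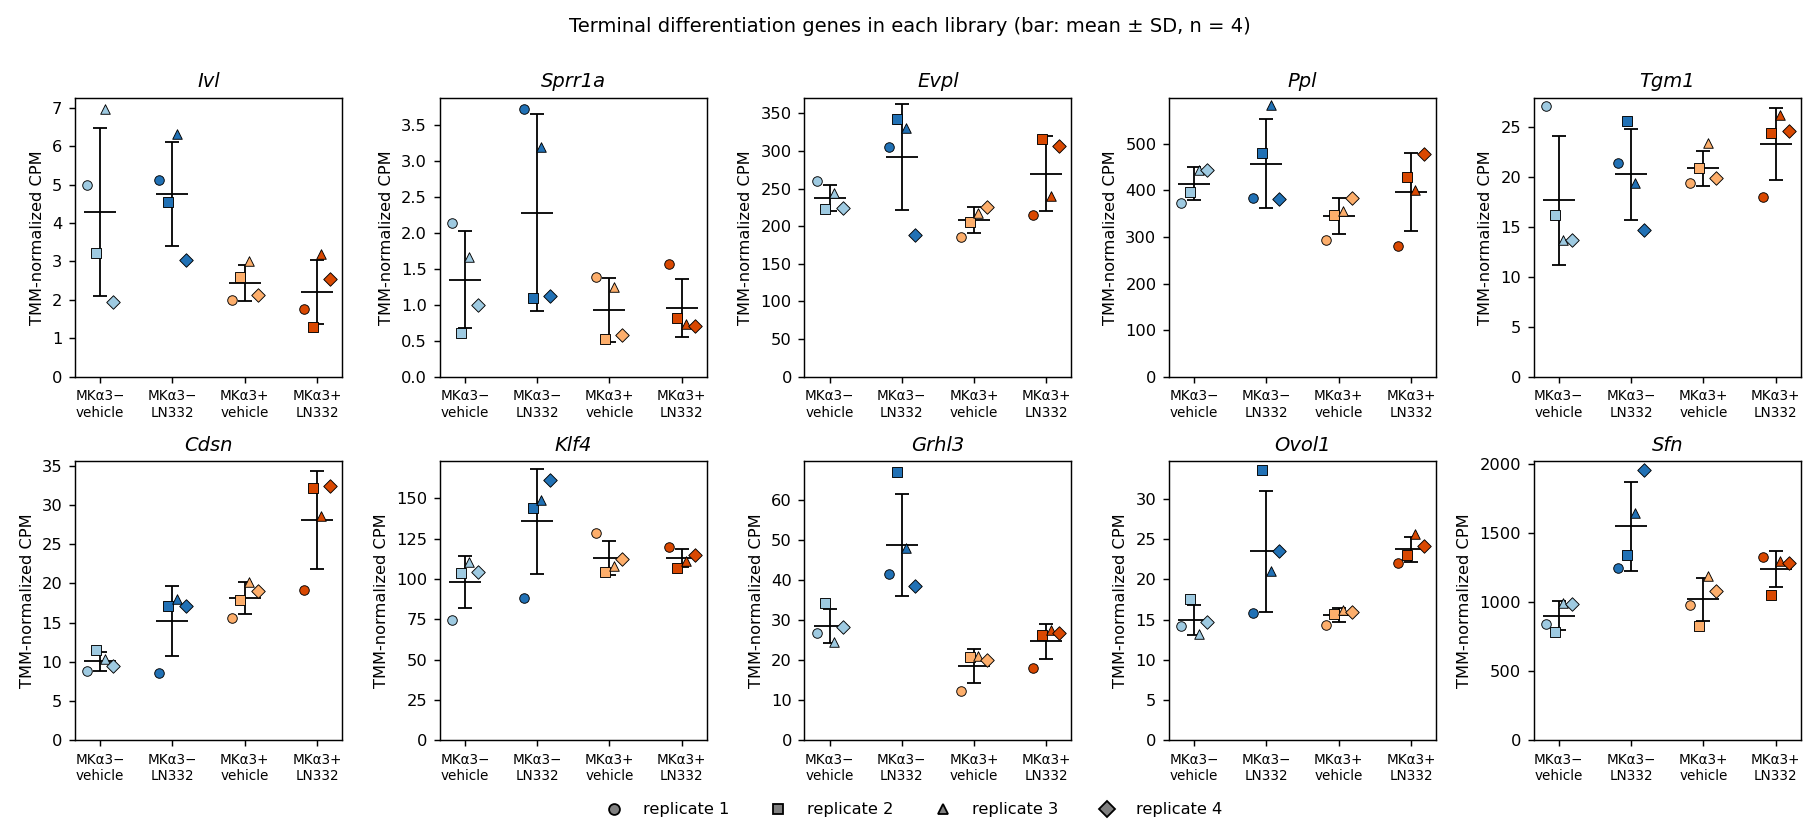
Level of each gene in every library, in CPM on a linear axis from 0, by line and treatment; symbols mark the replicate number, and bars the mean ± SD of 4 libraries. With LN332, *Sfn* and *Grhl3* in MKα3− cells and *Ovol1* in MKα3+ cells lie above all vehicle libraries of the same line, and *Cdsn* is higher in MKα3+ than in MKα3− libraries under either treatment.

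To ask whether LN332 altered these genes, LN332 libraries were compared with vehicle libraries within each line and as an average over both lines. A gene was called when the limma-voom test gave a Benjamini-Hochberg adjusted p under 0.05 over all 14474 genes and a log2 fold change beyond 0.5 in size. Averaged over both lines, 4 of the 10 genes rose with LN332 and none fell, where 1.35% of all genes were called, 0.919% rising and 0.435% falling. These were *Ovol1*, *Sfn*, *Grhl3* and *Cdsn*. All 10 estimates were above 0, compared with 48.9% of all genes, and their median was 0.35 against -0.0045 for all genes on the log2 scale. Because the 10 genes were chosen with earlier results of these data known, these shares are a description and not an independent test. With library size alone as the scaling, which lowered the median gene by 0.078, *Ivl* came to -0.030 and 3 of the 10 genes were called (*Sfn* was not), while calls over all genes changed from 133 higher and 63 lower to 84 higher and 174 lower.

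*Ovol1*, a zinc-finger repressor that favours exit from proliferation, rose on average over the lines, with an estimate of 0.61 on the log2 scale in each. In MKα3+ cells it read 14.3, 15.7, 16.2 and 15.9 CPM with vehicle (replicates 1 to 4) and 22.01, 23.0, 25.6 and 24.2 CPM with LN332. These groups did not overlap, and each LN332 library exceeded the vehicle library of its number by 0.61 ± 0.043 on the log2 scale (mean ± SD, n = 4). In MKα3− cells the values were 14.2, 17.6, 13.2 and 14.8 CPM with vehicle and 15.8, 33.6, 21.0 and 23.5 CPM with LN332, where replicate 1 of the LN332 group stayed within the vehicle range. The averaged log2 fold change was 0.61 (SE 0.12, adjusted p = 0.00944), or 1.53-fold, and it was called in all 16 fits that left out a library. The annotation places the antisense gene AC126029.1 and the pseudogene Gm31166 over *Ovol1* exons on the opposite strand, and whether reads were counted by strand is not given in the sources used here, so reads of these features cannot be told apart from those of *Ovol1*.

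*Sfn* rose in MKα3− cells. There it measured 838, 784, 994 and 987 CPM with vehicle and 1248, 1340, 1646 and 1957 CPM with LN332. Every LN332 library lay above every vehicle library. The log2 fold change in MKα3− cells was 0.77 (SE 0.15, adjusted p = 0.0352), or 1.71-fold, the only call among the 10 genes in that line, where 0.304% of all genes were called and 0.242% rose. The 4 vehicle libraries of MKα3+ cells read 980, 828, 1189 and 1079 CPM and their LN332 libraries 1324, 1049, 1298 and 1284 CPM, overlapping groups that gave 0.29 (SE 0.15, adjusted p = 0.572). Each of these LN332 libraries exceeded the vehicle library of its number, by 0.29 ± 0.13 on the log2 scale (mean ± SD, n = 4). *Sfn* was still not called in MKα3+ cells by limma-voom with the replicate number as a block (adjusted p = 0.110). The test of the difference between these responses gave -0.48 (SE 0.21), with an unadjusted p of 0.0341 and an adjusted p of 0.9999 in the limma-voom fit, so a difference between the lines was not shown. Averaged over lines, *Sfn* rose by 0.53 (SE 0.10, adjusted p = 0.00952). The call in MKα3− cells was lost in 9 of 16 fits without 1 library, with adjusted p up to 0.113: those without any one of vehicle replicates 1 to 4 or LN332 replicates 2 or 4 of MKα3− cells, vehicle replicate 4 of MKα3+ cells, or LN332 replicates 3 or 4 of MKα3+ cells. The averaged call was lost without MKα3− vehicle replicate 2, MKα3− LN332 replicate 4 or MKα3+ vehicle replicate 2 (log2 fold change down to 0.46) and with library size alone or quality weights, and the call in MKα3− cells also when only the groups compared were fitted or when libraries were weighted by quality. *Sfn* transcripts shared 15% of their 50-base words with transcripts of other genes, among them the pseudogenes Gm7850, Gm5279 and Ywhaq-ps1, so that its count is uncertain. By how much was not measured.

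*Grhl3*, a Grainyhead-like factor required for the epidermal barrier, was the other gene whose MKα3− groups did not overlap. It read 26.7, 34.3, 24.5 and 28.4 CPM with vehicle and 41.5, 66.9, 48.1 and 38.4 CPM with LN332, all 4 LN332 libraries being higher. The estimate in MKα3− cells, 0.76 on the log2 scale (SE 0.19), missed the threshold (adjusted p = 0.0843). Among all genes, 2.29% had LN332 libraries wholly above vehicle libraries in MKα3− cells, as *Grhl3* and *Sfn* did (exact permutation test, two-sided p = 0.0286 for each, the smallest that 70 splits allow), and 4.78% did in MKα3+ cells, as *Ovol1* did with the same p. In MKα3+ cells *Grhl3* measured 12.3, 20.9, 21.2 and 20.2 CPM with vehicle and 18.2, 26.3, 27.6 and 26.8 CPM with LN332. Replicate 1 was low under both treatments, and each LN332 library exceeded the vehicle library of its number (0.42 ± 0.099, mean ± SD on the log2 scale, n = 4). Averaged over lines its estimate came to 0.59 (SE 0.14, adjusted p = 0.0234), a call lost in 5 of 16 fits, with adjusted p up to 0.0577, without MKα3− vehicle replicate 3, MKα3+ vehicle replicate 1, or MKα3+ LN332 replicate 2, 3 or 4.

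*Cdsn*, which encodes corneodesmosin, rose least securely of the 4. MKα3− cells held 8.88, 11.5, 10.4 and 9.43 CPM with vehicle and 8.57, 17.1, 18.02 and 17.1 CPM with LN332, where replicate 1 was the lowest library of all. MKα3+ cells held 15.5, 17.8, 20.2 and 19.0 CPM with vehicle and 19.1, 32.1, 28.6 and 32.4 CPM with LN332, of which only replicate 1 overlapped the vehicle range. The averaged log2 fold change was 0.57 (SE 0.15, adjusted p = 0.0409). It stayed a call only in the 2 of 16 fits without replicate 1 of either LN332 group and was lost in the other 14 (adjusted p up to 0.0877), while its log2 fold change lay between 0.52 and 0.70 over the 16 fits.

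The remaining 6 genes were not called with LN332 in either line or on average. *Klf4*, a factor needed for barrier acquisition, read 74.5, 104, 111 and 104 CPM with vehicle and 88.5, 144, 149 and 162 CPM with LN332 in MKα3− cells, an estimate of 0.45 (SE 0.16, adjusted p = 0.229). In MKα3+ cells means of 113 ± 10.6 and 113 ± 5.51 CPM gave 0.00 with a 95% confidence interval of -0.33 to 0.33. The limma-voom interaction for *Klf4* was -0.45 (SE 0.22, unadjusted p = 0.0608, adjusted p = 0.9999), so a difference between the lines was not shown. *Klf4* was called in MKα3− cells only without LN332 replicate 1 of that line. The plakins *Evpl* and *Ppl*, which scaffold the envelope at the membrane, ran from 188 to 342 and from 280 to 584 CPM over all libraries, and *Tgm1*, the main cross-linking transglutaminase, from 13.6 to 27.1 CPM. For *Evpl* and *Ppl* averaged estimates were 0.30 (95% confidence interval 0.058 to 0.54, adjusted p = 0.149) and 0.15 (-0.088 to 0.39, adjusted p = 0.504). *Tgm1* gave 0.20 (-0.094 to 0.49, adjusted p = 0.465). *Evpl* was higher in the LN332 library of each numbered pair of MKα3+ cells, by 0.35 ± 0.22 on the log2 scale (SD, n = 4), but was not called with the block (adjusted p = 0.279). *Ivl* and *Sprr1a*, with few reads, gave 0.053 (-0.50 to 0.61) and 0.40 (-0.37 to 1.17), intervals wide enough to hold both no change and 1.17 for *Sprr1a*.

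Within MKα3+ cells alone, none of the 10 genes was called by limma-voom, where 0.187% of all genes were. With edgeR none of the 10 and 4 of all 14474 genes were called. DESeq2 called 1 of the 10, *Ovol1*, and 121 of all genes. By limma-voom, 3 of the 10 had an unadjusted p under 0.05, compared with 9.59% of all genes. In these libraries the replicate number was taken as a pairing, from correlations of the same data. With the replicate number as a block, *Ovol1* (0.61, SE 0.14, adjusted p = 0.0320) and *Cdsn* (0.62, SE 0.13, adjusted p = 0.0165) were called, when 1.51% of all genes were. That block was fitted over all 16 libraries. Its replicate effect was thus shared with MKα3− cells, where the numbers were not taken as a pairing. The interaction of line and LN332 was called for none of the 10 genes and for 0% of all genes by limma-voom, edgeR or DESeq2, with 1 of the 10 (*Sfn*) and 1.13% of all genes at an unadjusted p under 0.05 by limma-voom.

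**Figure D2:**
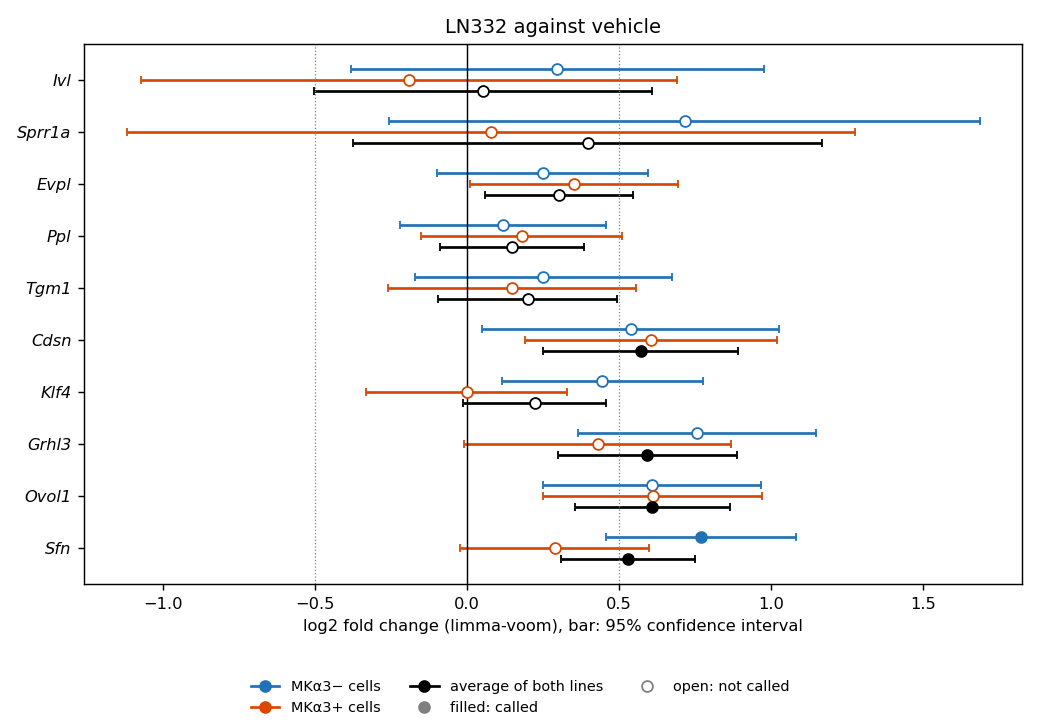
Log2 fold change of LN332 against vehicle for each gene in MKα3− cells, in MKα3+ cells and averaged over both, with 95% confidence intervals from limma-voom; filled points are called, and dotted lines mark 0.5 in size. *Cdsn*, *Grhl3*, *Ovol1* and *Sfn* are called on average at 0.53 to 0.61, while *Ivl* and *Sprr1a* have the widest intervals.

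Values outside the 10 genes also differed in range between treatments. The mitochondrial share of counts ran from 0.917% to 2.83% in MKα3− cells with LN332 and from 1.02% to 1.62% with vehicle, and the *Rn45s* share reached 1.42% and 0.868% respectively. In MKα3+ cells the mitochondrial share was 1.62% to 1.94% with LN332 and 1.15% to 1.73% with vehicle, and the *Rn45s* share reached 1.06% and 0.652%. The summed level of the 6 simple epithelium markers was 2216 to 2891 CPM with vehicle and 2824 to 3528 CPM with LN332 in MKα3− cells, and 4422 to 4844 and 5201 to 5917 CPM in MKα3+ cells, with 1 of the 6, *Krt8*, called (higher, in MKα3− cells). Their part in the responses was not tested.

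MKα3+ cells were then compared with MKα3− cells under each treatment, to ask which of the genes differed with integrin α3β1. With vehicle, 2 of the 10 were called, near the share of 18.5% among all genes (10.9% higher, 7.56% lower): *Cdsn* was higher and *Grhl3* lower in MKα3+ cells. With LN332, 3 were called against 20.6% of all genes (11.7% higher, 8.92% lower), *Ivl* being lower in addition.

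*Cdsn* was the only one of the 10 with a higher call, and the ranges of the lines did not overlap under either treatment. Means rose from 10.1 ± 1.17 CPM in MKα3− cells to 18.2 ± 1.996 CPM in MKα3+ cells with vehicle, and from 15.2 ± 4.43 to 28.1 ± 6.20 CPM with LN332 (SD, n = 4). The log2 fold changes were 0.85 (SE 0.22, adjusted p = 0.00876) and 0.92 (SE 0.21, adjusted p = 0.00252), both called in all 16 fits without 1 library. Complete separation upward was common, found for 17.2% of all genes with vehicle and 13.6% with LN332.

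*Grhl3* moved the other way, with means of 28.5 ± 4.21 against 18.6 ± 4.24 CPM with vehicle and 48.7 ± 12.7 against 24.8 ± 4.40 CPM with LN332. Its log2 fold changes were -0.64 (SE 0.20, adjusted p = 0.0252) and -0.97 (SE 0.19, adjusted p = 0.000914). The vehicle call was lost without MKα3− vehicle replicate 2 or MKα3+ vehicle replicate 1, where the estimate came to -0.45 at its smallest, while the LN332 call stood in all 16 fits. Downward separation of the lines was seen for 15.7% of all genes with vehicle and 12.9% with LN332. *Grhl3* and *Cdsn*, which both rose with LN332 on average, differed in opposite directions between the lines.

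*Ivl*, the gene of the classical envelope precursor involucrin, held 4.98, 3.22, 6.98 and 1.93 CPM in MKα3− cells and 2.001, 2.61, 3.02 and 2.12 CPM in MKα3+ cells with vehicle. With LN332 it held 5.12, 4.56, 6.32 and 3.03 CPM and 1.77, 1.30, 3.19 and 2.55 CPM. The ranges overlapped under both treatments. Its log2 estimate was -0.67 with vehicle (SE 0.37, adjusted p = 0.187) and -1.16 with LN332 (SE 0.38, adjusted p = 0.0266), the latter call being lost without MKα3− LN332 replicate 3, MKα3+ LN332 replicate 1 or MKα3+ LN332 replicate 2 (adjusted p up to 0.0903). Its neighbour *Sprr1a*, a small proline-rich envelope protein, with LN332 measured 3.72, 1.09, 3.19 and 1.12 CPM in the MKα3− libraries, against 1.57, 0.812, 0.739 and 0.712 CPM in MKα3+ cells, an estimate of -1.13 (SE 0.50) that was not called (adjusted p = 0.0959). DESeq2 did call it.

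The other 6 genes were not called between the lines under either treatment. Vehicle estimates ran from -0.27 for *Ppl* to 0.30 for *Tgm1*, which had one high library, MKα3− replicate 1 at 27.1 CPM against 13.6 to 16.1 CPM in the rest, and was called only without it (up to 0.53, adjusted p = 0.0313). With LN332, estimates of these 6 ran from -0.31 for *Sfn* to 0.20 for *Tgm1*. An antisense gene, Gm49067, overlaps *Tgm1* exons on the opposite strand. For *Ovol1* the 95% confidence interval was -0.31 to 0.44 with vehicle and -0.28 to 0.40 with LN332, and for *Sfn* -0.14 to 0.48 and -0.63 to 0.0068.

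**Figure D3:**
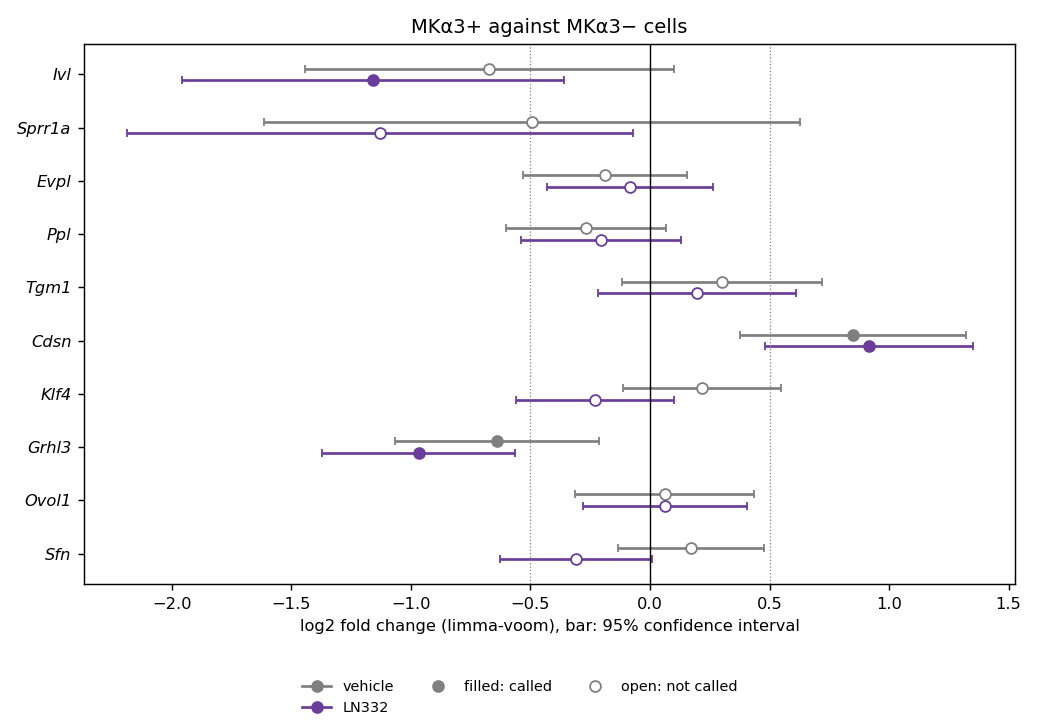
Log2 fold change of MKα3+ against MKα3− cells for each gene, with vehicle and with LN332, with 95% confidence intervals from limma-voom; filled points are called, and dotted lines mark 0.5 in size. *Cdsn* lies at 0.85 and 0.92 and *Grhl3* at -0.64 and -0.97, both called under either treatment, while *Ivl* is called only with LN332.

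Markers of other cell types differed between the lines as well. Of the 6 simple epithelium markers 4 were called higher in MKα3+ cells under both treatments. Of the 11 basal markers 3 were called lower under each, *Krt15*, *Lamb3* and *Dst* with vehicle and *Krt5*, *Trp63* and *Lamb3* with LN332. The melanocyte marker *Pmel* was called lower under both treatments and the mesenchymal marker *Twist1* higher with vehicle. Of the 4 measured immune markers only *Lyz2* was called, higher with vehicle (3.06, adjusted p = 0.0469). *Adgre1* ran from 0.106 to 4.88 CPM in MKα3− and from 7.30 to 34.9 CPM in MKα3+ libraries with vehicle (4.07, adjusted p = 0.0506). *Ptprc* gave 1.69 (adjusted p = 0.0590) and *Cd68* 0.12 (adjusted p = 0.768) in the same limma-voom comparison. The summed immune level with vehicle was 27.9 to 76.2 CPM in MKα3− and 83.8 to 306 CPM in MKα3+ libraries. Their part in the line differences was not tested.

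A further 62 measured genes of terminal differentiation, in 5 lists, put the 10 genes in context. Between the lines with vehicle, 20 of the 62 (32.3%) were called, 7 higher and 13 lower in MKα3+ cells, against 18.5% of all genes (10.9% higher, 7.56% lower). With LN332 25 were (40.3%), 7 higher and 18 lower, against 20.6% of all genes (11.7% higher, 8.92% lower). Of 14 other envelope precursors, 3 were higher and 3 lower with vehicle. *Lce1g*, a late cornified envelope gene, rose from 1.28 ± 0.726 to 7.86 ± 1.84 CPM (log2 fold change 2.76, adjusted p = 0.00208), and *Tchh*, which encodes the hair follicle protein trichohyalin, from 5.57 ± 0.693 to 16.3 ± 1.20 CPM (1.55, adjusted p = 3.29e-08). The neighbouring suprabasal genes *Sbsn* and *Dmkn* fell from 44.6 ± 13.2 to 12.8 ± 1.93 CPM (-1.76, adjusted p = 1.12e-05) and from 155 ± 47.2 to 54.2 ± 13.96 CPM (-1.51, adjusted p = 2.41e-04).

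Regulators gave 4 lower and 0 higher calls of 23 with vehicle, and 8 lower and 1 higher with LN332. *Cebpa*, a factor of early differentiation, fell from 18.6 ± 6.96 CPM in MKα3− to 4.70 ± 1.04 CPM in MKα3+ libraries with vehicle (-1.93, adjusted p = 1.91e-04). Suprabasal keratin and desmosomal genes gave 2 lower of 4. Cross-linking and lipid enzymes gave 2 higher and 1 lower of 12, among them *Elovl4*, which elongates very long chain fatty acids, at 0.95 (adjusted p = 4.74e-05). Desquamation proteases and their inhibitors gave 2 higher and 3 lower of 9. The calls thus ran in both directions in 3 of the 5 lists with vehicle.

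With LN332 averaged over lines, 4 of the 10 genes and 1.35% of all genes were called, and 1 of the 62 (1.61%). It was *Abca12*, the keratinocyte lipid transporter, which went from 110 ± 9.51 to 150 ± 42.8 CPM in MKα3− cells and from 53.5 ± 3.38 to 89.8 ± 24.8 CPM in MKα3+ cells (log2 fold change 0.55, SE 0.14, adjusted p = 0.0334). This call was lost with library size alone (0.47) and in 11 of 16 fits without 1 library, with estimates of 0.48 to 0.65 and adjusted p up to 0.0742. Of these 16, the 5 that kept it were those without vehicle replicate 2 or 4 or LN332 replicate 1 or 4 of MKα3− cells, or LN332 replicate 1 of MKα3+ cells. The median of the 62 was 0.063. In either line alone limma-voom and edgeR called none of the 62, and DESeq2 called 1 in MKα3+ cells and 0 in MKα3− cells. Over all 14474 genes, edgeR called 4 and DESeq2 121 in MKα3+ cells, and 47 and 165 in MKα3− cells. By limma-voom 8 of the 62 in MKα3+ cells (12.9%) and 12 in MKα3− cells (19.4%) had an unadjusted p under 0.05, against 9.59% and 14% of all genes. The replicate block called 2 of the 62 in MKα3+ cells, where it called 1.51% of all genes. In MKα3− cells it called 2 of the 62 and 259 of all 14474 genes.

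**Figure D4:**
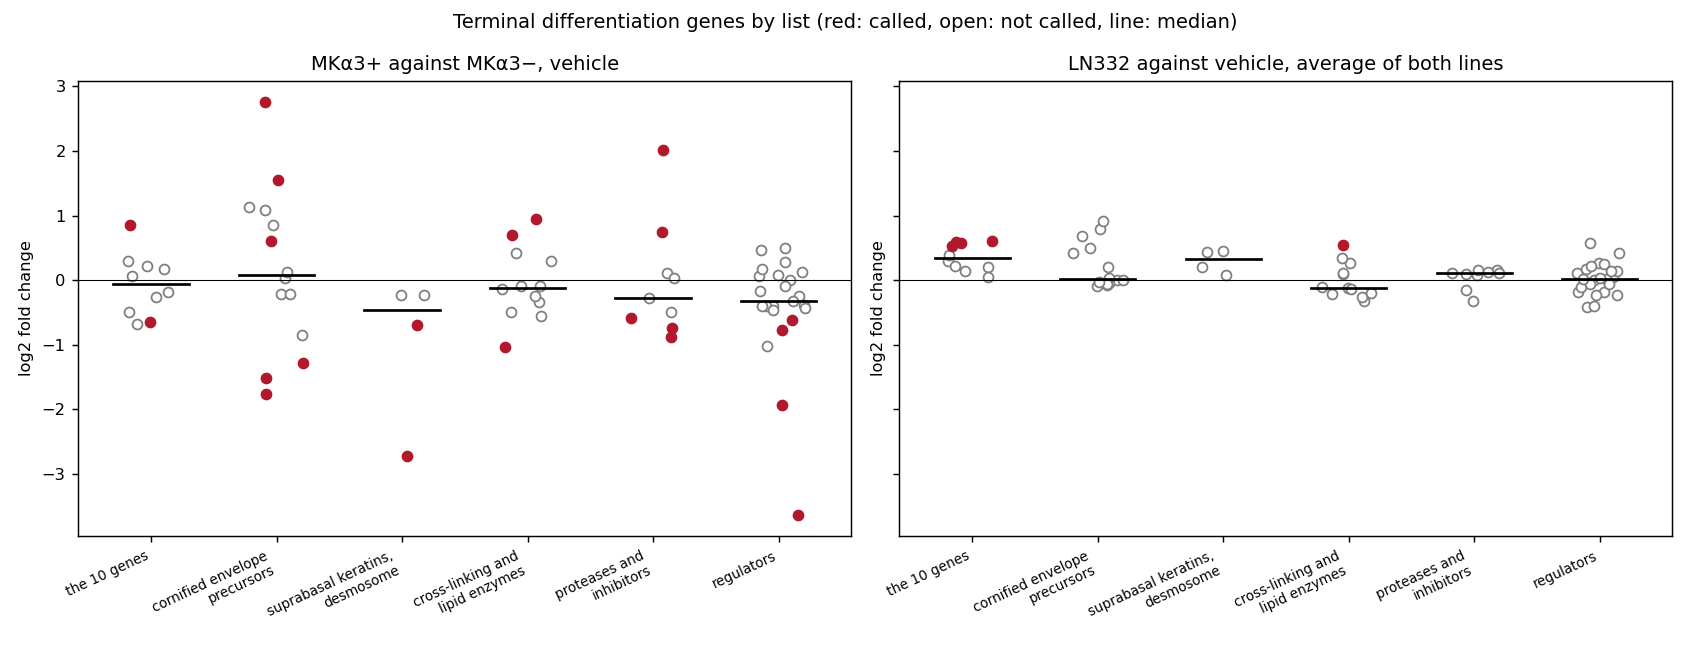
Log2 fold changes of the 10 genes and of the 62 further genes in 5 lists, for the line difference with vehicle (left) and for LN332 averaged over lines (right); red points are called, open points are not, and horizontal lines are medians. Calls between the lines spread in both directions across the lists, while LN332 calls fall on 4 of the 10 genes and on *Abca12*.

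*Ivl* and *Sprr1a* belong to the epidermal differentiation complex, a cluster of barrier genes at chr3:90511034-93564645 (GRCm38), in which 27 genes were measured from *S100a1* to *S100a10*. With vehicle 3 of the 27 were higher in MKα3+ cells and 0 lower, where 10.9% and 7.56% of all genes were: *Loricrin*, *Lce1g* and *Tchh*. With LN332 the same 3 were higher and *Ivl* lower, where 11.7% and 8.92% of all genes were. The median of the 27 was 0.17 with vehicle and 0.011 with LN332. *Ivl* at -0.67 and *Sprr1a* at -0.49, neither of them called, lay below the median of their own cluster with vehicle. They were not alone in this, as *Sprr2g*, also not called, lay at -0.85. *Lce1g*, the next measured gene of the cluster beyond *Ivl*, lay at 2.76.

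**Figure D5:**
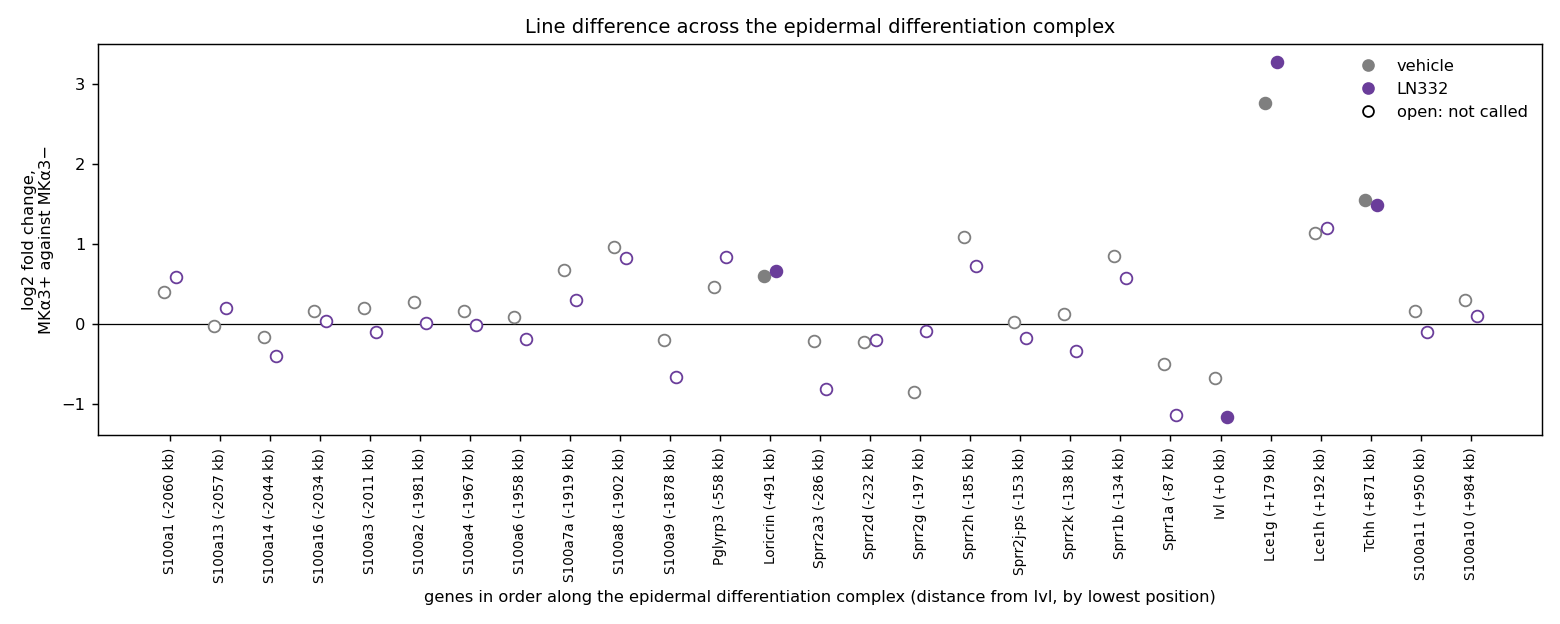
Log2 fold change of MKα3+ against MKα3− cells for 27 genes of the epidermal differentiation complex in order along the chromosome, with vehicle (grey) and LN332 (purple); labels give the distance from *Ivl*, and open points are not called. *Lce1g* and *Tchh*, on one side of *Ivl*, and *Loricrin*, on the other, are higher in MKα3+ cells. *Ivl* and *Sprr1a* lie below 0, as do other genes of the complex such as *Sprr2g*.

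The genes with the most similar pattern over the 16 libraries differed from one of the 10 to the next, by Pearson r of log2 CPM as a description across libraries that share lines and treatments. *Cdsn* was most like *Pacsin2* (r = 0.978) and *Mapk6* (0.963), *Ovol1* like *Rnf19a* (0.940) and *Ppp2r2a* (0.926), and *Grhl3* like *Fst* (0.938) and *Cct8* (0.922). *Sfn* was most like the feature with Entrez identifier 665928, for which no symbol was found (0.925) and whose counts were 1.33% to 1.77% of those of *Sfn*, and then like *Fhl2* (0.892). *Ppl* was closest to the desmoglein gene *Dsg3* (0.927) and *Ncoa2* (0.926), and *Sprr1a* to *Zfp750* (0.905), a regulator of terminal differentiation, and *Arid3a* (0.903). *Klf4* was closest to *Rflnb* (0.888) and *Anxa8* (0.884), *Tgm1* to *Atp5mc2* (0.861) and *Trim59* (0.819), and *Ivl* to *Tmem51* (0.859) and *Gm7367* (0.850).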

How the data were processed

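RNA-seq was performed on 16 libraries, 4 per group. According to the study's methods and the labels, the authors made poly(A)-selected libraries, converted base calls with bcl2fastq 2.20, aligned reads to mm10 with Rsubread, counted genes with featureCounts against its built-in Entrez annotation, and kept genes over 0.5 CPM in at least 3 libraries. The deposited values were raw counts per gene for the 14474 genes kept. Here counts were normalized by TMM (edgeR 4.0.16) and tested in 1 limma-voom fit (limma 3.58.1) with a coefficient per group, Benjamini-Hochberg adjusted over 14474 genes. RPKM divided TMM-normalized CPM by exon length from GENCODE (GRCm38), and exon overlaps came from the same annotation. Gene positions came from RefSeq (GRCm38.p6). Single genes were also compared by exact permutation tests over all 70 splits (Python 3.11.15).

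Members and gene lists were chosen with earlier results of these data known. Named further genes were the 3 with the highest and lowest vehicle estimates among those called in both line comparisons with mean log2 CPM of at least 1, and any called with LN332, plus the 2 most correlated genes per member (those of *Evpl* are not reported here). Replicates differed beyond sampling noise (smallest chi-square per degree of freedom 5.51). Nothing says that replicates were separate cultures, so p-values measure the spread between these libraries. Same-numbered libraries were taken as paired where every pair's correlation of deviations exceeded 0.1. This held for LN332 against vehicle in MKα3+ cells (r = 0.620, 0.474, 0.202 and 0.580) and not elsewhere. On simulated counts, 77.5% (vehicle line comparison), 85.5% (LN332 in MKα3+ cells) and 68.5% (interaction) of 200 genes changed by 1 on the log2 scale were recovered among 14474. The same runs called 6, 10 and 8 unchanged genes. The called LN332 estimates of the 10 genes were smaller, at 0.53 to 0.77, and the simulated libraries shared no effect of replicate number. These shares therefore do not give the recovery of changes of that size, which was not simulated. Alternatives were edgeR, DESeq2 1.42.0, other size factors, filters, weights, a replicate block, other fold thresholds and each library left out. A pair of alternatives, edgeR with the block and permutation without TMM, were added after seeing the data.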

Additional observations from a re-analysis of the deposited data

Results flagged for a closer look

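In 7 of 68 groups of 4 libraries tested for the named genes, 1 library lay far from the other 3 by Dixon's test, where about 3.4 would be flagged by chance. *Grhl3* read 12.3 CPM in MKα3+ vehicle replicate 1 (others 20.2 to 21.2) and 18.2 CPM in MKα3+ LN332 replicate 1 (others 26.3 to 27.6). The same LN332 library held 1.57 CPM of *Sprr1a* (others 0.712 to 0.812) and 34.5 CPM of *Dmkn* (others 61.5 to 64.8). *Cdsn* read 8.57 CPM in MKα3− LN332 replicate 1 (others 17.1 to 18.02). *Sfn* read 1049 CPM in MKα3+ LN332 replicate 2 (others 1284 to 1324). *Lce1g* read 5.82 CPM in MKα3− LN332 replicate 4 (others 0.600 to 1.32). Of these 7 values, 5 came from replicate 1, and the cause was not tested.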

How the results depend on the processing

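Among the 10 genes, the line calls with vehicle (2) became 1 with sample quality weights, 0 at a log2 fold change over 1 and 1 to 3 without 1 library. Those with LN332 (3) became 1 over 1 and 2 to 4 without 1 library. LN332 calls in MKα3+ cells (0) became 1 with DESeq2 or only the groups compared and 2 with quality weights, the replicate block or edgeR with the block, and stayed at 0 without any 1 library. Over all genes these settings called 121, 107, 454, 218 and 201 in that order, against 27 in the main fit. Without 1 library, 0 to 47 of all genes were called. LN332 calls in MKα3− cells (1) became 3 with DESeq2, 2 with weights (*Grhl3* and *Ovol1*, without *Sfn*), 4 with the replicate block in limma-voom or edgeR, 0 with only the groups compared or over 1, and 0 to 4 without 1 library. Over all genes the main fit called 44, DESeq2 165, weights 123 and the block 259 (limma-voom) or 242 (edgeR). With only the groups compared 1 gene was called, and without 1 library 1 to 150. Averaged LN332 calls (4) became 0 over 1, 3 with library size alone or weights (both without *Sfn*) and 2 to 4 without 1 library, and the interaction stayed at 0. Without 1 library, averaged calls over all genes ran from 114 to 321, against 196 in the main fit. In the 62 further genes the vehicle line calls (20) became 10 over 1 and 16 to 22 without 1 library. Averaged LN332 calls there (1) became 2 with DESeq2 or no minimum fold, 3 with weights or either replicate block, 0 with library size alone or over 1, and 0 to 2 without 1 library. Same-numbered libraries correlated by 0.26 on average and differently numbered ones by -0.080. Deviations were taken from the mean of each group, so the second value largely follows from the first and is not separate evidence. Outside LN332 in MKα3+ cells at least 1 numbered pair of each comparison stayed under 0.1 (lowest -0.047), so the numbers were not taken as a pairing there. In those comparisons the block added *Ivl* (vehicle line comparison), *Sprr1a* (LN332 line comparison) and *Grhl3*, *Ovol1* and *Cdsn* (LN332 in MKα3− cells). Over all genes, averaged LN332 calls were 133 higher and 63 lower, but 84 and 174 with library size alone and 221 and 243 with weights.

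Sign changes all befell estimates that were not called. *Klf4* turned to -0.21 between the lines with vehicle once the median of its 10 Mb surroundings was subtracted, and in MKα3+ cells with LN332 to -0.0034 (edgeR), -0.078 (library size), -2.9e-04 (block), -0.0020 (groups compared), -0.0072 (edgeR with block) and -0.028 (surroundings). *Ovol1* turned to -0.17 between the lines with LN332 (weights), and its interaction to -0.043 (edgeR), -0.037 (DESeq2), -0.0040 (library size), -0.015 (block), -0.27 (weights) and -0.016 (edgeR with block). Library size alone gave *Sprr1a* -0.0015 in MKα3+ cells and *Ivl* -0.030 on average, and weights gave *Evpl* an interaction of -0.066. Without 1 library, estimates crossed 0 in these ranges: between the lines with LN332, *Evpl* -0.29 to 0.016 and *Ovol1* -0.11 to 0.26. LN332 in MKα3+ cells gave *Ivl* -0.40 to 0.025, *Sprr1a* -0.18 to 0.32 and *Klf4* -0.038 to 0.061, and in MKα3− cells *Ivl* -0.032 to 0.58 and *Ppl* -0.0032 to 0.20. Averaged, *Ivl* ran from -0.11 to 0.19. Interactions ran from -0.33 to 0.020 (*Tgm1*), -0.10 to 0.21 (*Evpl*), -0.039 to 0.22 (*Ppl*), -0.17 to 0.20 (*Ovol1*) and -0.19 to 0.24 (*Cdsn*). The cause was not tested. Of the estimates of the 10 genes in another fit that gave a test, 1416 kept direction and side of the threshold, 29 gained and 41 lost a call, and 54 changed sign. Depth limits *Sprr1a* and *Ivl*, with as few as 13 and 32 reads.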
